A study of Mus musculus with 6 samples.

Results

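Oligodendrocytes wrap axons of the central nervous system in myelin, and 42 genes that mark their lineage were followed in RNA-seq of the prefrontal cortex (PFC) of control mice and mice exposed to early life stress (ELS). The genes were taken by symbol from a table of 22000 symbols, and they run from progenitor surface proteins to the proteins of mature myelin. A row under the gene's own symbol was found for 41 of the 42. All 41 reached at least 1 CPM (counts scaled to a common library size) in every mouse of a group, and so entered the comparison together with 13185 genes in all. Sept4, a septin of the myelin scaffold, had no row under its symbol and is given apart. All mice were male C57BL/6N, and each of the 6 libraries came from the PFC of 1 mouse of 9 weeks, with 3 controls and 3 ELS mice. From weaning at postnatal day 21 to day 50, ELS mice were housed singly under a filter cap, whereas control mice lived 4 to a cage with no filter cap, and both kept their housing until dissection at day 67. The mice came from litters of the same mothers, but the sources used here do not tie a library to a litter or a cage. ELS thus stands here for isolation from weaning, and the filter cap and isolation cannot be told apart.

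In the cortex, progenitors that carry Pdgfra and Cspg4 divide throughout life, and some of them leave the cell cycle, pass a short committed stage marked by Gpr17, Bcas1 and Enpp6, and become myelinating cells. The transcription factors Olig1, Olig2, Sox10 and Nkx2-2 set the lineage, and Tcf7l2 and Myrf act as the cells mature. Myelin is a stack of compacted membrane that is rich in galactolipids, and it insulates axons between the nodes of Ranvier. Myelination of the PFC goes on well after weaning. Several of the genes are also used by other cells, among them Nfasc in neurons, Cspg4 in pericytes, Tcf7l2 in some neurons and Enpp2 in the choroid plexus. In bulk tissue such as this, fewer cells of a type and less RNA per cell cannot be told apart.

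No member of the lineage passed the test between the groups. With edgeR's quasi-likelihood test, 0 of the 41 passed an adjusted p of 0.05 together with an absolute log2 fold change of 0.3, against 0.0152% of all genes tested (2 of 13185). The smallest adjusted p among the members was 0.96 in this edgeR test, for Opalin, and that of each of the other 40 was 1.0. At the same thresholds DESeq2 called 0 members against 0.137% of all genes (18 of 13185), and limma-voom 0 members against 0.0152% (2 of 13185). At an unadjusted p under 0.05 there were 2 members, Opalin, a membrane protein of mature oligodendrocytes, and the transcription factor gene Tcf7l2. This share of 4.88% stood beside 4.23% of all genes at the same limit. In 3 members, Opalin, Tcf7l2 and Fa2h, the values of ELS mice did not overlap those of control mice, a share of 7.32% against 8.28% of all genes. All 3 shares describe the members beside the rest of the transcriptome and are no test of the list.

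The sizes of the differences bear on what 3 mice per group could show. Of the 41 genes, 19 had a log2 fold change above 0 and 22 below 0, with a median of -0.0037 and a range from -0.48 to 0.30. The median over all genes tested was -0.0046. An absolute log2 fold change under 0.1 was seen in 32 members (78.05%), compared with 70.5% of all genes. For 27 members the 95% interval of the difference lay within 0.3 on either side of 0, so that a change as large as the fold threshold lay outside the interval. The other 14, among them Opalin, Tcf7l2, Hapln2, Cspg4 and Nkx2-2, had intervals that crossed 0.3 or -0.3, so that a change of that size was not detectable, or not set apart from a smaller one, with these mice. Total counts ran from 28405795 to 35241743 per library, and each ELS library was deeper than each control library. The least expressed member, Tcf7l2, had 110 to 178 reads per mouse.

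**Figure D1:**
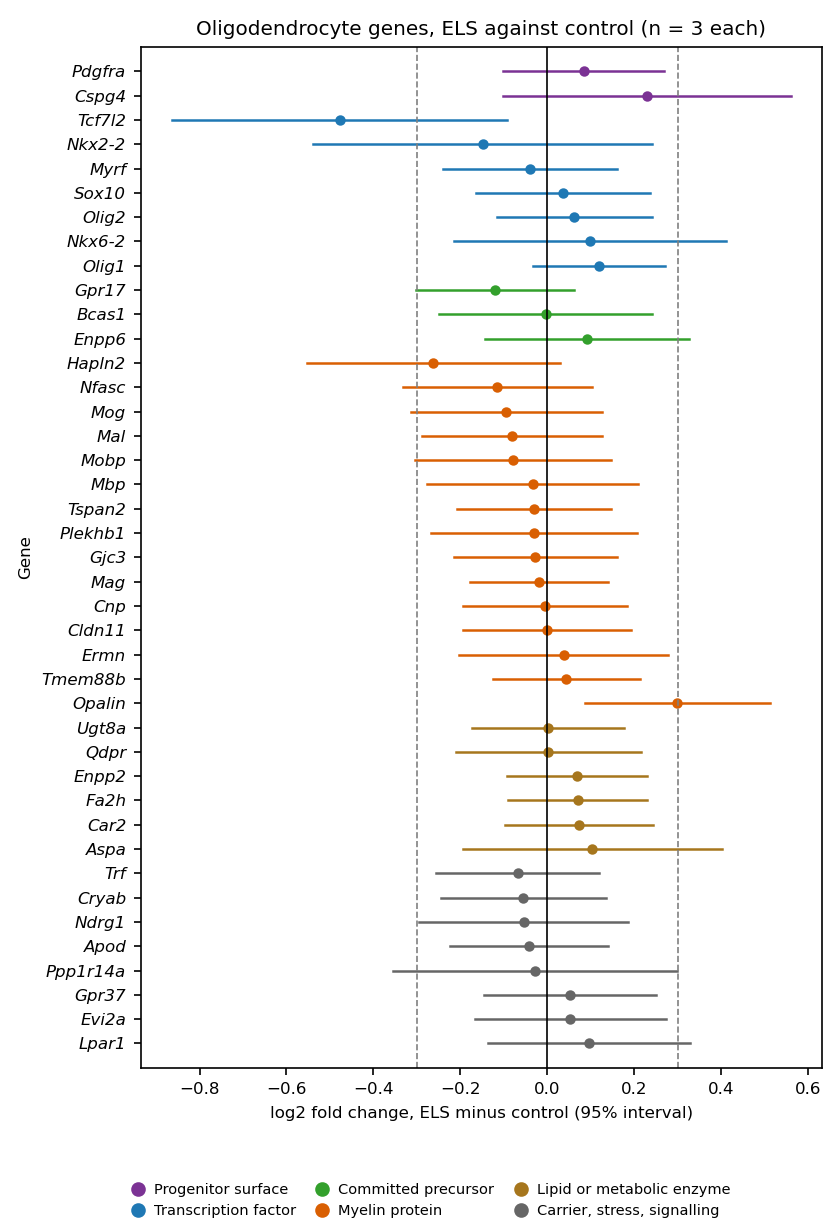
Log2 fold change of each of the 41 genes (dots, ELS minus control, 3 mice per group) with its 95% interval (lines), coloured by role, with dashed lines at -0.3 and 0.3. Only Opalin and Tcf7l2 have intervals that leave out 0, and 27 of the 41 intervals lie between the dashed lines.

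Levels were compared between genes as CPM per kb of exon, which corrects for gene length. Mbp, which encodes the basic protein that holds the inner faces of the membrane together, stood first with a mean of 354 CPM per kb over the 6 mice. Mobp, another small protein of compact myelin, followed with 159 CPM per kb, and its highest mouse (197) lay below the lowest mouse for Mbp (310). Qdpr, an enzyme that regenerates the cofactor tetrahydrobiopterin, and Mal, a proteolipid of membrane sorting, came next with 123 and 119 CPM per kb. Their ranges overlapped each other, at 111 to 145 and 105 to 136. Cnp, Cldn11 and Plekhb1 had 93.5, 93.3 and 92.5 CPM per kb and could not be ordered beyond their spread. The regulators lay below all of these abundant genes, with Olig1 the highest of them at 50.2 CPM per kb. Sox10, Olig2, Nkx6-2, Myrf and Nkx2-2 had 10.8, 9.08, 6.44, 4.45 and 1.72 CPM per kb. Some myelin protein genes were at similar levels, such as Opalin at 9.64 and Hapln2 at 7.13 CPM per kb. The progenitor genes Pdgfra and Cspg4 had 5.07 and 1.07 CPM per kb. Tcf7l2 was last at 0.462 CPM per kb. The genes that define myelinating cells, and those of their progenitors, were thus present in every mouse.

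**Figure D2:**
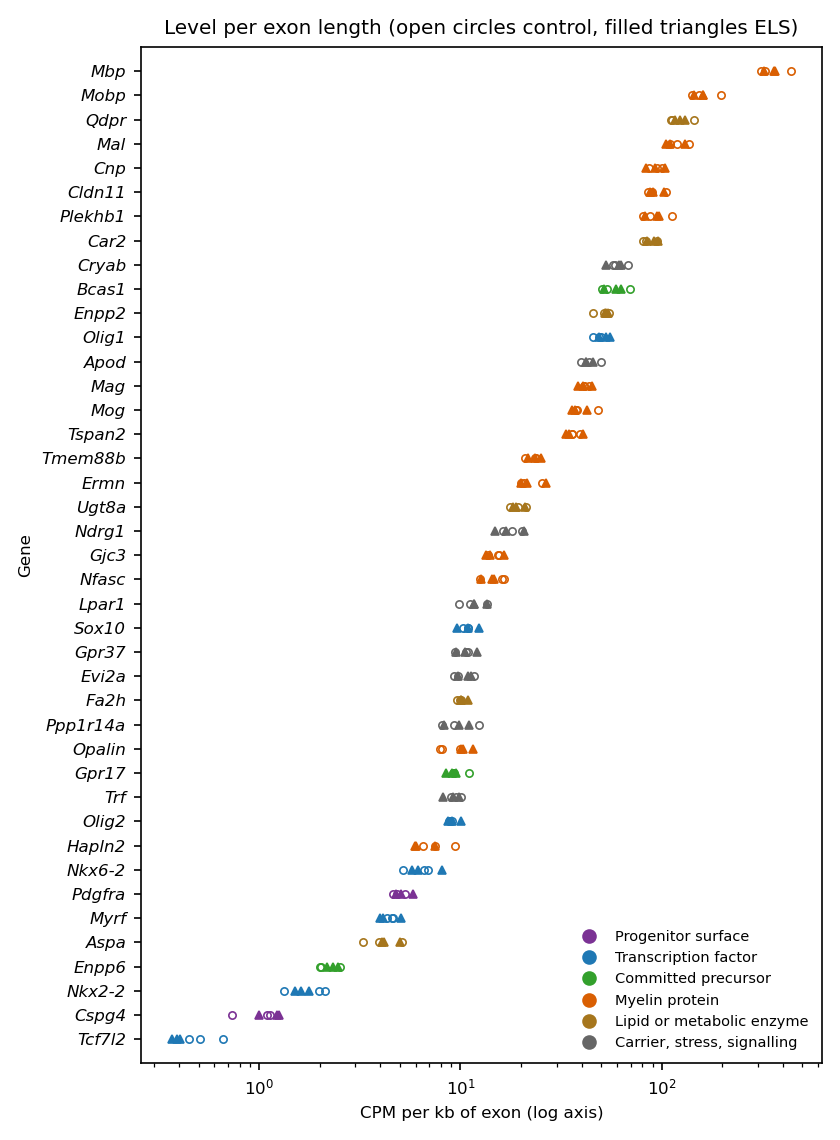
CPM per kb of exon on a log axis for each of the 41 genes, with control mice as open circles and ELS mice as filled triangles, coloured by role. Mbp lies at the top with a mean of 354 and Tcf7l2 at the bottom with 0.462, and circles and triangles are interleaved for nearly all genes.

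Both progenitor surface genes had higher means in ELS mice, and neither difference passed the test. Pdgfra, the receptor through which platelet-derived growth factor drives progenitor division, had 53.0, 48.7 and 46.2 CPM in controls 1 to 3 and 48.0, 50.6 and 58.2 CPM in ELS mice 1 to 3. Only ELS mouse 3 lay above all control mice. The log2 fold change was 0.08 (standard error 0.0855, unadjusted p = 0.346 in edgeR), and without that mouse it was -0.00084. Cspg4 (chromosome 9, 56865033 to 56899870, plus strand of GRCm38), the NG2 proteoglycan, had 13.1, 13.5 and 8.73 CPM in controls and 11.9, 14.6 and 14.9 CPM in ELS mice. Control mouse 3 was the lowest of the 6, and the log2 fold change of 0.23 (standard error 0.152, unadjusted p = 0.156 in edgeR) was 0.05 without that mouse. Pericytes also make NG2, and 3 of 10 markers of endothelial and mural cells were higher in ELS mice at an unadjusted p under 0.05 in edgeR. Of all genes, 4.23% were at that limit, and 0 of the 10 markers were called. The summed level of the 10 markers was 432 to 470 CPM in controls and 434 to 515 CPM in ELS mice. Its part in the Cspg4 values was not tested. Among 15 other genes of progenitors, 10 had a log2 fold change above 0 and 5 below 0, with a median of 0.05. Sox4, a transcription factor of immature cells, had the smallest p among them, with 34.2 ± 0.852 CPM in controls and 39.5 ± 1.27 CPM in ELS mice (SD over 3 mice each). All ELS mice lay above all control mice for Sox4, yet the log2 fold change of 0.21 (standard error 0.0693) had an adjusted p of 0.97 in edgeR.

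Of the 7 lineage transcription factors, 4 were above 0 and 3 below 0, with a median log2 fold change of 0.04. Tcf7l2 (chromosome 19, 55741820 to 55933654, plus strand of GRCm38), an effector of Wnt signalling that is transiently high as precursors begin to differentiate, had 5.78, 4.46 and 3.91 CPM in controls 1 to 3 and 3.54, 3.23 and 3.41 CPM in ELS mice 1 to 3. Every ELS mouse lay below every control mouse, but control mouse 3 was close to ELS mouse 1, and control mouse 1 carried much of the difference. The log2 fold change was -0.48 (standard error 0.178, 95% interval -0.86 to -0.09), with an unadjusted p of 0.0192 in edgeR. Without control mouse 1 it was -0.30. Olig1, a factor needed for maturation and repair, had 98.6, 106 and 108 CPM in controls and 119, 106 and 114 CPM in ELS mice. ELS mouse 2 lay within the control range, and the log2 fold change was 0.12 (standard error 0.070, unadjusted p = 0.116 in edgeR), or 0.08 without ELS mouse 1. Olig2, which lies beside Olig1 on chromosome 16, had 22.5 ± 0.360 CPM in controls and 23.5 ± 1.71 CPM in ELS mice. Sox10, which drives myelin genes at every stage, and Myrf, which is required for their expression, had 32.7 ± 1.13 and 38.6 ± 1.30 CPM in controls and 33.5 ± 4.27 and 37.5 ± 5.06 CPM in ELS mice. Nkx2-2 and Nkx6-2, homeodomain factors of the lineage, overlapped between groups, at 3.84 to 6.09 and 9.84 to 13.1 CPM in controls and 4.35 to 5.09 and 10.98 to 15.4 CPM in ELS mice. Among 15 further regulators of maturation, Hes5, a target of Notch, had the smallest p, with a log2 fold change that was 0.35 (standard error 0.132, unadjusted p = 0.0200 in edgeR).

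The committed stage between progenitor and myelinating cell overlapped between the groups in all 3 of its genes. Gpr17, a receptor that holds precursors back from full maturation, had 57.1, 47.5 and 48.2 CPM in controls and 49.1, 44.1 and 47.4 CPM in ELS mice. Control mouse 1 stood above the rest, and the other 5 mice were close together. The log2 fold change was -0.12 (standard error 0.084, unadjusted p = 0.177 in edgeR), and without control mouse 1 it was -0.03. Bcas1, which marks cells in the act of forming myelin, had 190, 203 and 264 CPM in controls and 224, 194 and 237 CPM in ELS mice. The ELS values lay within the control range, and the log2 fold change was -0.0037 (standard error 0.113, unadjusted p = 0.975 in edgeR). Enpp6, a choline phosphodiesterase of new oligodendrocytes, had 14.0 ± 1.84 CPM in controls and 14.9 ± 0.917 CPM in ELS mice (SD over 3 mice each).

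**Figure D3:**
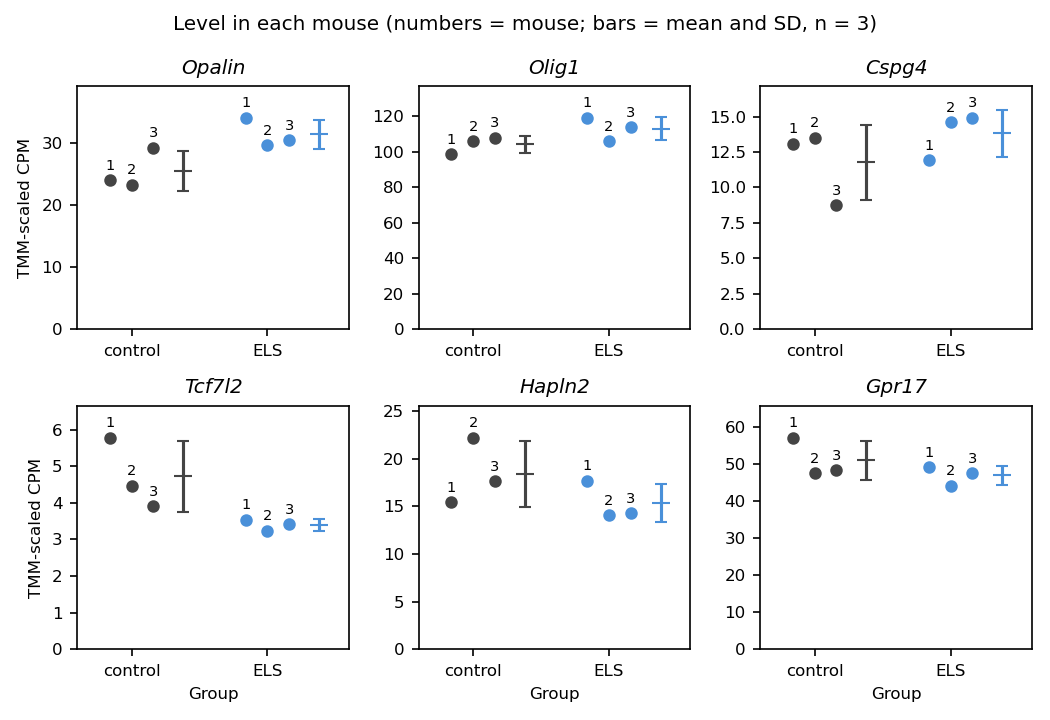
TMM-scaled CPM of 6 genes in each mouse (numbered dots, control grey and ELS blue), with the mean and SD over 3 mice as a bar to the right of each group. Opalin in ELS mice (29.6 to 34.0) lies above and Tcf7l2 in ELS mice (3.23 to 3.54) below all control mice, while Olig1, Cspg4, Hapln2 and Gpr17 overlap.

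Of the 16 myelin proteins 15 were tested, of which 3 had a log2 fold change above 0 and 12 below 0, with a median of -0.03, and 1 had an unadjusted p under 0.05. Opalin (chromosome 19, 41061710 to 41077113, minus strand of GRCm38), a glycoprotein of the myelin loops beside the node, had 24.0, 23.2 and 29.2 CPM in controls 1 to 3 and 34.0, 29.6 and 30.4 CPM in ELS mice 1 to 3. Every ELS mouse lay above every control mouse, with control mouse 3 and ELS mouse 2 only just apart. The log2 fold change was 0.30 (standard error 0.0982, 95% interval 0.09 to 0.51), a 1.23-fold higher level, with an unadjusted p of 0.00984 and an adjusted p of 0.96 in edgeR. Hapln2 (chromosome 3, 88021750 to 88027583, minus strand), which links hyaluronan to proteoglycans in the matrix at the node, showed the opposite order, with 15.4, 22.2 and 17.7 CPM in controls and 17.7, 14.1 and 14.3 CPM in ELS mice. ELS mice 2 and 3 lay below all control mice, whereas ELS mouse 1 lay among them. The log2 fold change of -0.26 (standard error 0.134, unadjusted p = 0.0728 in edgeR) ranged from -0.38 to -0.11 as each mouse was left out, and the -0.11 came without control mouse 2.

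The abundant structural genes showed no such order. Mbp had 2625, 2757 and 3715 CPM in controls and 3110, 2715 and 3061 CPM in ELS mice. Control mouse 3 was the highest of all and the remaining control mice were among the lowest, with a log2 fold change that was -0.03 (standard error 0.112, unadjusted p = 0.767 in edgeR). Mog, a glycoprotein on the outermost surface of the sheath, had 63.6, 64.6 and 81.9 CPM in controls and 72.5, 61.0 and 63.4 CPM in ELS mice. Here too control mouse 3 and ELS mouse 1 stood highest, and the log2 fold change was -0.09 (standard error 0.101, unadjusted p = 0.371 in edgeR). Mobp had 1122 ± 199 CPM in controls and 1062 ± 61.2 CPM in ELS mice, and the adhesion protein gene Mag had 170.4 ± 5.59 and 168 ± 13.8 CPM. Cnp, the phosphodiesterase of uncompacted myelin, had 341 ± 26.4 and 339.8 ± 37.8 CPM, and Cldn11, which seals the sheath with tight junctions, had 174 ± 19.5 and 174 ± 15.1 CPM in control and ELS mice (SD over 3 mice each). Mal, Ermn, Tspan2, Gjc3, Plekhb1 and Tmem88b had log2 fold changes between -0.08 and 0.04. Nfasc, an adhesion protein made both by the glial loops and by the axon at the node, had 228, 233 and 177 CPM in controls and 179, 207 and 204 CPM in ELS mice. Its lowest values were in control mouse 3 and ELS mouse 1, the reverse of Mbp and Mog, with a log2 fold change that was -0.11 (standard error 0.10, unadjusted p = 0.273 in edgeR). It was -0.23 without control mouse 3 (unadjusted p = 0.00494, adjusted p = 0.217, edgeR), -0.06 and -0.04 without control mouse 1 or 2, and -0.05 without ELS mouse 1. Sept4 may be held by a row that a spreadsheet had turned into a date, 1 of 27 such rows. That row had 162, 169.5 and 185 CPM in controls and 181, 149 and 161 CPM in ELS mice, with a log2 fold change of -0.07, and it is in none of the counts above.

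Opalin and Tcf7l2 had the highest and lowest log2 fold changes of the list, and their promoters are shown with those of Mobp and Mog. Mobp and Mog were highest in control mouse 3, which was so for 18 of the 41 members (43.9%, against 25.2% of all genes). Each promoter is 300 bases from RefSeq on GRCm38.p6, read in the direction of the gene. It runs from 250 bases before the start of transcription to 50 after it. The windows are chr19:41077064-41077363 (minus strand) for Opalin, chr9:120149492-120149791 (plus strand) for Mobp, chr17:37023349-37023648 (minus strand) for Mog, and chr19:55741560-55741859 (plus strand) for the first of 2 starts of Tcf7l2. Capitals mark the hexamers ACAAAG and ACAATG, which SOX factors such as Sox10 can bind, and CAGCTG, an E-box of the kind that OLIG factors can bind. All were searched on both strands, so that CTTTGT and CATTGT are ACAAAG and ACAATG on the other strand, and no marked match overlaps another.
Opalin: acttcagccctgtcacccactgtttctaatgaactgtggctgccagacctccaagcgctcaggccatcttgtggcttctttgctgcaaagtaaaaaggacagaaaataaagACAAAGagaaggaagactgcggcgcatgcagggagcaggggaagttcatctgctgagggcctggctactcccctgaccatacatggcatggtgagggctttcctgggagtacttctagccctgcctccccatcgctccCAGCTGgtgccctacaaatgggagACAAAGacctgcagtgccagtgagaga
Mobp: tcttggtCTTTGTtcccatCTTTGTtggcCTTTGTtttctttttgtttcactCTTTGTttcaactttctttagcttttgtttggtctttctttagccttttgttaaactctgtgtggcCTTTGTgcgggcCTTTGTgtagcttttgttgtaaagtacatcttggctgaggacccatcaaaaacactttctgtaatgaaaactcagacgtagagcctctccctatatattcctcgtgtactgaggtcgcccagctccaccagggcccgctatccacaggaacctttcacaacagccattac
Mog: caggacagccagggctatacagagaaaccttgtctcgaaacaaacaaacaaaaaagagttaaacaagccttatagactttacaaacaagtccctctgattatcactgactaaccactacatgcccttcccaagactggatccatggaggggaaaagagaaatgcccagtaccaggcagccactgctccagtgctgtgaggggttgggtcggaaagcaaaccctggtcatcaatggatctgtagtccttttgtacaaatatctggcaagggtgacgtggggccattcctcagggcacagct
Tcf7l2: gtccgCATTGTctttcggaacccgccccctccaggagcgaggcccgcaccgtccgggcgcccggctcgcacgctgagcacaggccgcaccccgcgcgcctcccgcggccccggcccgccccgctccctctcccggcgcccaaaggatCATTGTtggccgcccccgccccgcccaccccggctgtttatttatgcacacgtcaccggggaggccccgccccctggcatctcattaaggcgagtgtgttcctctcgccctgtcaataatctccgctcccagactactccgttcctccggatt

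Opalin held 2 ACAAAG and 1 CAGCTG, Mobp held 6 ACAAAG, Tcf7l2 held 2 ACAATG, and Mog held none of the hexamers. The window of the second Tcf7l2 start, which is not shown, held 1 ACAAAG and no ACAATG. Of the members, 28 had a promoter in the RefSeq table, with 36 windows between them. ACAAAG was present for 9 of the 28 (32.1%) and for 21% of all 27025 genes. ACAATG was present for 8 (28.6%) against 14.3%, and CAGCTG for 5 (17.9%) against 18.3%. Either SOX hexamer was present for 14 of the 28 genes (50%) and for 31.7% of all genes. A match is only a run of letters in this window, and these shares were not tested.

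All 6 genes for lipid and metabolic enzymes had log2 fold changes above 0, from 0.00073 to 0.10 with a median of 0.07, and none reached an unadjusted p of 0.05. Fa2h (chromosome 8, 111345135 to 111393824, minus strand of GRCm38), which hydroxylates the fatty acids of myelin galactolipids, had 29.9, 30.1 and 29.0 CPM in controls and 32.8, 30.4 and 30.2 CPM in ELS mice. The groups did not overlap, but ELS mouse 3 exceeded control mouse 2 by a small margin and only ELS mouse 1 stood apart, with a log2 fold change that was 0.07 (standard error 0.0736, unadjusted p = 0.361 in edgeR) and 0.03 without that mouse. Qdpr had 201, 199 and 260 CPM in controls and 234, 207 and 220 CPM in ELS mice, which fully overlapped at a log2 fold change that was 0.0020 (standard error 0.0982, unadjusted p = 0.984 in edgeR). Ugt8a, the enzyme that makes galactosylceramide, had 87.8 ± 7.80 CPM in controls and 87.8 ± 6.15 CPM in ELS mice. Aspa, which releases acetate from N-acetylaspartate, had 24.5 ± 5.50 and 26.3 ± 2.95 CPM. Car2, a carbonic anhydrase, and Enpp2, which makes lysophosphatidic acid, had 209 ± 17.6 and 293 ± 26.7 CPM in controls and 219.6 ± 14.4 and 307 ± 3.93 CPM in ELS mice. Choroid plexus also makes Enpp2, and its 6 markers summed to 3.40 to 4.09 CPM in controls and 3.72 to 5.82 CPM in ELS mice. The 2 of them tested, Kl and Kcnj13, had log2 fold changes of 0.36 and 0.50 (unadjusted p = 0.139 and 0.0808 in edgeR), and their part in the Enpp2 values was not tested. Among 17 further genes of sphingolipid and myelin lipid synthesis, 11 were above 0 and 6 below 0. Elovl7, a fatty acid elongase, had the smallest p of them, with a log2 fold change that was 0.25 (standard error 0.0885, unadjusted p = 0.0162 in edgeR).

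The 8 carrier, stress and signalling genes had log2 fold changes from -0.07 to 0.10. Cryab, a small heat shock protein, had 86.3, 84.6 and 101 CPM in controls and 93.2, 77.9 and 90.2 CPM in ELS mice. The groups overlapped in part, with ELS mouse 2 below and control mouse 3 above all mice of the other group, and the log2 fold change was -0.06 (standard error 0.0877, unadjusted p = 0.540 in edgeR). A gene on the other strand, Hspb2, covers 17.0% of its exons, and the strand setting of the counting is not given in the sources used here. Trf, the iron carrier transferrin, and the lipocalin gene Apod had 31.5 ± 1.92 and 114 ± 13.0 CPM in controls and 30.1 ± 2.72 and 111 ± 5.22 CPM in ELS mice. Another annotated gene shares 63.5% of the Trf exons on the same strand, and so its counts are uncertain, as are those of Evi2a with 19.2%. Antisense genes cover 18.6% of the exons of Qdpr and 11.7% of those of Bcas1. Also on the other strand, Inpp5a covers 12.9% of the exons of Nkx6-2, and Nkx2-2os covers 9.67% of those of Nkx2-2. Ndrg1, Gpr37, Lpar1, Ppp1r14a and Evi2a had group means that differed by less than 1 SD of the control mice, with 119.6 ± 12.8, 62.7 ± 4.97, 49.3 ± 8.19, 13.6 ± 3.01 and 23.6 ± 3.00 CPM in controls and 115 ± 19.4, 65.0 ± 7.65, 52.7 ± 4.53, 13.3 ± 1.87 and 24.4 ± 1.95 CPM in ELS mice.

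Most of the lineage genes varied together from mouse to mouse. Their summed level was 7448, 7651 and 9457 CPM in controls 1 to 3 and 8514, 7446 and 8159 CPM in ELS mice 1 to 3, between 0.738% and 0.947% of the counts of a library. Control mouse 3 and ELS mouse 1 were the 2 highest. For each gene the deviation of a mouse from the mean over the 6 mice was taken on log2(CPM + 1). The mean deviation over the 41 genes was -0.05, -0.04 and 0.09 in controls 1 to 3 and 0.10, -0.10 and -0.0026 in ELS mice 1 to 3. Control mouse 3 had the highest control value in 30 members (73.2%), compared with 38.9% of all genes tested. ELS mouse 1 had the highest ELS value in 34 members (82.9%, against 34.1% of all genes) and ELS mouse 2 the lowest in 34 (82.9%, against 34.7%). Control mouse 3 and ELS mouse 1 took the first 2 places of the 6 in 25 members, or 61.0%, whereas this was so for 14.0% of all genes. These counts describe the members, which share cells and are not independent of each other. The median SD within groups was 0.142 on the log2 scale for members and 0.107 for all genes.

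**Figure D4:**
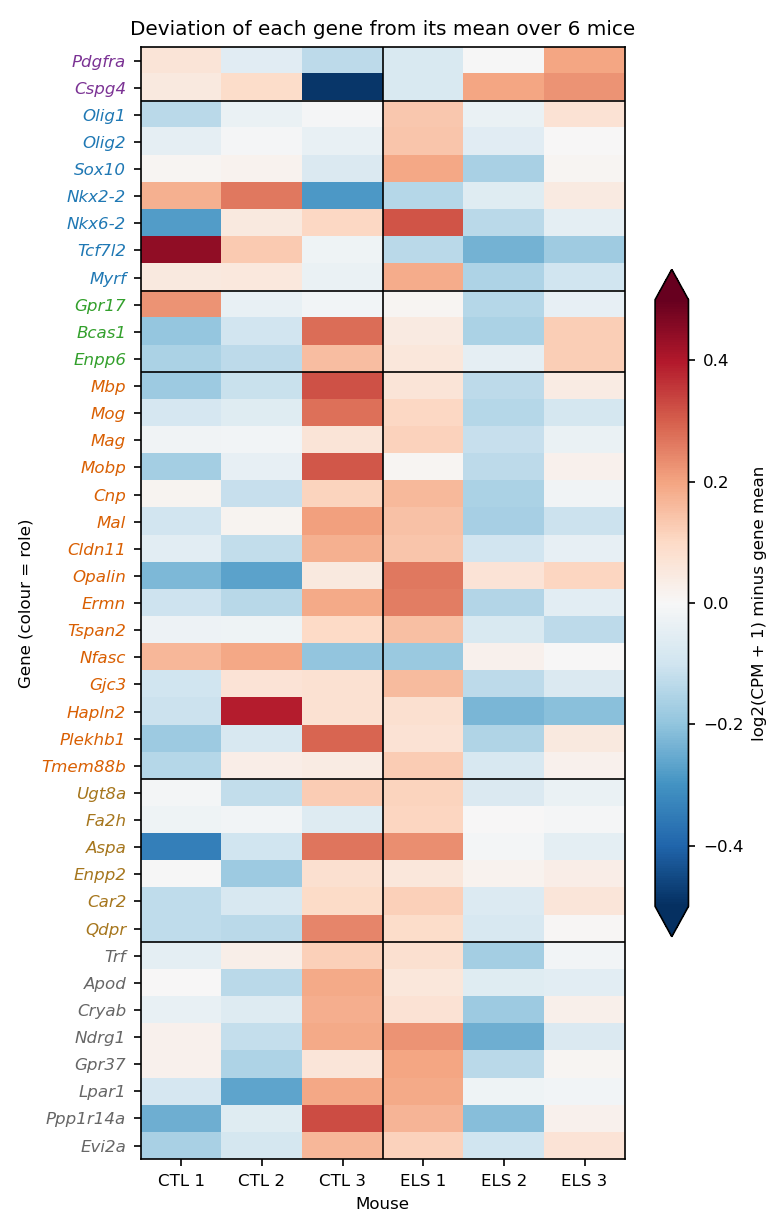
Deviation of each of the 41 genes (rows, ordered by role and coloured as in the plot of fold changes) from its mean over 6 mice on log2(CPM + 1), in each mouse (columns), with red above and blue below the mean. The columns of control mouse 3 and ELS mouse 1 are red for most myelin, enzyme and carrier genes, and that of ELS mouse 2 is blue, while Cspg4, Nkx2-2 and Nfasc are blue in control mouse 3.

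The pattern over mice is given by role as a description, with no test between roles. Myelin proteins had a mean deviation of 0.14 in control mouse 3 and 0.11 in ELS mouse 1, enzymes had 0.13 and 0.12, and carrier, stress and signalling genes had 0.18 and 0.14. Committed precursor genes had 0.14 and 0.04. Transcription factors did not share the pattern in control mouse 3, at -0.05, though they did in ELS mouse 1, at 0.10. The 2 progenitor surface genes went the other way, at -0.31 in control mouse 3 and -0.08 in ELS mouse 1, with their highest value of 0.21 in ELS mouse 3. For Pdgfra, Cspg4, Nkx2-2 and Nfasc, control mouse 3 and ELS mouse 1 were each the lowest of their group. This was so for only these 4 members (9.76%), against 21.6% of all genes. Members of 1 role could thus differ, as Nkx2-2 did from Nkx6-2 and Nfasc from the other myelin proteins. Opalin kept part of the shared pattern, with ELS mouse 1 highest of the 6, but ELS mice 2 and 3 were also above all control mice, which was so for no other myelin protein. Hapln2 and Tcf7l2 followed neither pattern.

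The same mice stood apart in markers of other cells. The 9 striatal neuron markers tested summed to 300, 329 and 561 CPM in controls and 547, 363 and 389 CPM in ELS mice, and all 9 were highest in control mouse 3 among control mice and in ELS mouse 1 among ELS mice. Drd2, the dopamine receptor of striatal projection neurons, had 3.38, 4.43 and 10.5 CPM in controls and 11.6, 4.29 and 4.96 CPM in ELS mice. Of 18 axonal and nodal partner genes, 16 had log2 fold changes below 0 and none reached an unadjusted p of 0.05, with summed levels of 5736, 5684 and 4810 CPM in controls and 4602, 5531 and 5345 CPM in ELS mice, lowest in control mouse 3 and ELS mouse 1. Cntn2, an axonal adhesion protein beside the node, had the smallest p of these, with a log2 fold change that was -0.16 (standard error 0.0777, unadjusted p = 0.0631 in edgeR). The 5 blood markers summed to 51.0, 59.8 and 85.2 CPM in controls and 79.7, 52.6 and 64.4 CPM in ELS mice. Neuron markers summed to 12967 to 13519 CPM in controls and 12392 to 13405 CPM in ELS mice, and astrocyte markers to 6803 to 6975 and 6134 to 7056 CPM. Microglia markers summed to 354 to 381 and 368 to 389 CPM. No marker row was at 0 in all mice, and the part of any of these cells in the lineage values was not tested. Each group held 1 mouse with high striatal markers.

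**Figure D5:**
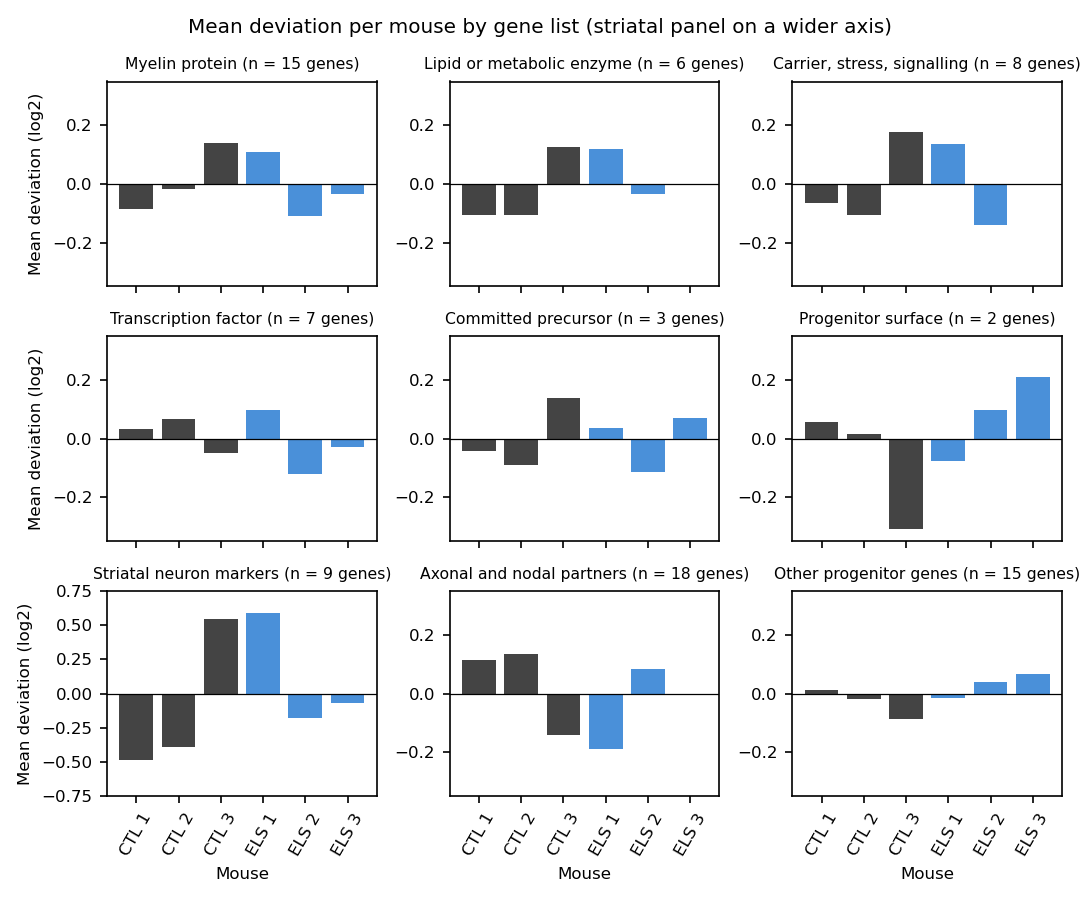
Mean deviation from the 6-mouse mean on log2(CPM + 1) in each mouse (bars, control grey and ELS blue) for the 6 roles of lineage genes and for 3 other lists, with a wider axis for striatal markers. Myelin proteins and striatal markers are both highest in control mouse 3 (0.14 and 0.54) and ELS mouse 1 (0.11 and 0.59), where axonal and nodal partners are lowest.

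The comparison between groups was repeated with these mice set aside or accounted for. With the striatal marker level as a covariate, 8 members had an unadjusted p under 0.05 in edgeR, against 7.24% of all genes, and 0 passed the adjusted threshold. The 2 higher in ELS mice were Opalin and Cspg4, and the 6 lower were Mog, Mal, Hapln2, Mobp, Tcf7l2 and Ndrg1. Cspg4 then had a log2 fold change that was 0.37 (adjusted p = 0.183, edgeR) and Mog one of -0.17 (adjusted p = 0.363, edgeR). Without control mouse 3 and ELS mouse 1, a choice made after the values were seen, 6 members were at this limit (1 higher and 5 lower) against 8.74% of all genes, and 0 passed the adjusted threshold. There the log2 fold change was 0.35 for Opalin (adjusted p = 0.161, edgeR), -0.62 for Tcf7l2 (adjusted p = 0.370, edgeR) and -0.40 for Hapln2 (adjusted p = 0.371, edgeR). Opalin lay between 0.23 and 0.41 and Tcf7l2 between -0.62 and -0.30 over all 17 alternatives tried, and neither reached the adjusted threshold in any of them. Among 120 other lineage and myelin genes tested with the same edgeR fit as the members, 0 were called, as in DESeq2. The median log2 fold change of the 120 was 0.0016. At an unadjusted p under 0.05, 6 were higher and 1 was lower, where 4.23% of all genes were at that limit. This count of 7 of the 120 became 25 without control mouse 3, where 11.7% of all genes were at that limit. It was 3 without control mouse 1, ELS mouse 1 or ELS mouse 3, where the shares of all genes were 4.16%, 3.53% and 2.77%. It was 12 with the striatal covariate (7.24% of all genes) or without control mouse 3 and ELS mouse 1 (8.74%). With the mean level of the members as a covariate, also chosen after the values were seen, it was 13 (6.98% of all genes). The 1 lower gene among the 7 was Sec14l5. It had 15.3 ± 1.36 CPM in controls and 11.9 ± 1.65 CPM in ELS mice (SD over 3 mice each). Its log2 fold change was -0.37 (standard error 0.116, unadjusted p = 0.00779, adjusted p = 0.949, edgeR). Adgrg1, an adhesion receptor of progenitors, had the smallest p among 27 growth factors and receptors, with a log2 fold change that was 0.13 (standard error 0.0745, unadjusted p = 0.0944 in edgeR).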

How the data were processed

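Each of the 6 mice gave 1 PFC library. Per the labels and the study's methods, the authors trimmed the reads, aligned them to mm10 with STAR (2.7.1a in the submitters' processing notes, another version in the study's methods), counted uniquely mapped reads with HTSeq 0.9.1, and deposited raw counts per gene symbol, neither normalized nor pooled. Columns headed by an abbreviation for social isolation were taken as the ELS mice, each by its number. In R 4.3.3 with edgeR 4.0.16, genes were kept if all 3 controls or all 3 ELS mice reached 1 CPM, scaled by TMM (factors 0.992 to 1.02) and fitted by quasi-likelihood with condition as the only term. Benjamini-Hochberg adjustment was made over 13185 genes. All adjusted p-values marked edgeR come from this fit or, where said, from a variant of it. CPM values include the TMM factor, and ± gives the SD between mice. DESeq2 1.42.0 and limma 3.58.1 served as alternatives, and the 2 edgeR tests (quasi-likelihood and likelihood ratio) were checked on simulated counts. Exon lengths and overlaps came from GENCODE on GRCm38, with all 42 symbols matched.

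The members and all gene lists were chosen with earlier results of these data known. Fold changes are printed for the 5 members with the smallest p in each direction, the most abundant member per length of each role, and the gene with the smallest p of each related list. Drd2 and the 4 promoters were picked after their values were seen. Counts of any 2 mice of a group differed beyond sampling noise (chi-square over its degrees of freedom, 6.70 to 21.4).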

Additional observations from a re-analysis of the deposited data

How the results depend on the processing

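The count of members called was 0 under each of the other tests, scalings, filters, covariates and sets of mice at the thresholds above, and with all mice at an adjusted p of 0.1 or with no fold change threshold. The number of members at an unadjusted p under 0.05 was 2 in most fits, 8 with the striatal covariate, 6 without control mouse 3 and ELS mouse 1, 5 with the mean member level as a covariate, against 6.98% of all genes (the last 2 were chosen after seeing the data), and from 1 to 6 with each mouse left out, the highest without control mouse 3, where 11.7% of all genes were at that limit, and the lowest without ELS mouse 2. Over all genes, 2 were called by edgeR's quasi-likelihood test, 18 by DESeq2, 28 by the likelihood ratio test, 4 with all genes of at least 1 read, 7 with the replicate block, 30 with the striatal covariate, 24 with the mean member level as a covariate, 27 without control mouse 3 and ELS mouse 1, 29 without control mouse 3 and 1 without each of the other mice. The cause was not tested. With the replicate number as a block (replicate block) the count was 2, 0 members were called and the median log2 fold change was 0.0010, and the deviations of same-numbered mice correlated at -0.16, 0.26 and -0.04, so that the numbers did not pair the mice. The median lay between -0.07 and 0.06 with each mouse left out.

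Genes near 0 changed sign. Bcas1 was 0.0062 in limma-voom, 0.0075 with upper-quartile scaling, 0.0060 with the replicate block, 0.0060 with the member level as a covariate, 0.14 without control mouse 3 and ELS mouse 1, and -0.10 to 0.15 with each mouse left out. Mbp was 0.10 without control mouse 3 and ELS mouse 1 and -0.13 to 0.14 with each mouse left out. Qdpr was -0.060 with the striatal covariate and -0.064 to 0.14 with each mouse left out. Over the mice left out, Cryab ran from -0.11 to 0.026, Mog from -0.17 to 0.032 and Pdgfra from -0.00084 to 0.14. Opalin and Tcf7l2 kept their signs in all 17 alternatives, with adjusted p from 0.0769 to 1.0 and from 0.232 to 1.0, the lowest of each from edgeR without control mouse 3. Without ELS mouse 1, Opalin was no longer at an unadjusted p under 0.05 in edgeR. Tcf7l2 was no longer at that limit without control mouse 1 or without ELS mouse 2.

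With 3 mice per group and libraries of 28405795 reads or more, counting error was not separated from the spread between mice for single members, and the lowest counts were those of Nkx2-2 and Tcf7l2, each with 110 reads in its lowest mouse.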

Other observations

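Opalin was set against the other genes of its own cells after its values had been seen. The ratio of Opalin to Mog CPM was 0.377, 0.360 and 0.356 in controls 1 to 3 and 0.469, 0.485 and 0.479 in ELS mice 1 to 3. That of Opalin to Mbp was 0.00914, 0.00843 and 0.00785 in controls and 0.0109, 0.0109 and 0.00992 in ELS mice. In both, every ELS mouse lay above every control mouse, and for Mog the mice of a group were closer to each other than for Opalin alone. The same held for the ratio of Opalin to 13 of 14 other myelin proteins (92.9%), to 30 of all 40 other members (75%) and to 42.7% of all 13184 other genes tested, Opalin itself being apart between the groups. The ratio of Hapln2 to Opalin was 0.644, 0.957 and 0.606 in controls and 0.520, 0.477 and 0.471 in ELS mice. All these ratios share the Opalin values, and no test was made of them.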
